A study of Homo sapiens with 6 samples.

Results

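Activin subunits, the follistatins that bind them and the activin receptors were followed in a human kidney cell line transfected with one of 3 DNAs. The set held 10 genes, INHBB, INHBA, INHBE, INHA, FST, FSTL3, ACVR1, ACVR1B, ACVR2A and ACVR2B, of 19775 genes that the platform annotation names by a single symbol. Every probe set whose only symbol was one of these was taken, bright or dim, which gave 22 probe sets. The family was chosen by the measured intensity of INHBB, which was higher with both constructs than in mock, so its values against the mock are a description and carry no test.

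The cells had received an empty vector (mock), hIMP1 wt or hIMP1 Dmut, and a single-channel expression array was run on the total RNA of each sample, 2 arrays in each of the 3 groups. The gene for IMP1 is IGF2BP1, and the protein binds RNA and is known for its effect on the stability, location and translation of bound messages. All groups share the same unnamed kidney line. The labels say neither what Dmut stands for nor whether the arrays numbered 1 and 2 came from separate cultures, so p-values measure only the spread between arrays, which may be technical. In bulk RNA, fewer cells expressing a gene and less RNA per cell cannot be told apart.

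Activins are dimers of inhibin beta subunits and belong to the TGF-beta superfamily. A beta subunit paired with the inhibin alpha subunit, encoded by INHA, forms an inhibin, which opposes activin. Subunit precursors are cleaved by proprotein convertases such as furin, and the mature dimer binds a type II receptor, which phosphorylates a type I receptor and through it SMAD2 and SMAD3. Follistatin and follistatin-like 3 bind activins and keep them from their receptors. Activin subunits are known in kidney epithelium from tubule development and from injury.

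INHBB and the type I receptor ACVR1 were the 2 genes of the set whose brightest probe set lay above both mock arrays on all 4 construct arrays, and their promoters are shown for that reason. INHBB was chosen for this, and 5.02% of all 54613 probe sets of the arrays lay so. RefSeq promoter sequence of build GRCh38.p14 matched 9 of the 10 genes. The window is the 250 bases before the annotated start. Capitals mark GGGCGG on either strand, the GC box bound by Sp1-type factors, and overlapping boxes were counted singly. The INHBB window lies at chr2:120345886-120346135 on the plus strand, and that of the first ACVR1 start at chr2:157876331-157876580 on the minus strand.
INHBB: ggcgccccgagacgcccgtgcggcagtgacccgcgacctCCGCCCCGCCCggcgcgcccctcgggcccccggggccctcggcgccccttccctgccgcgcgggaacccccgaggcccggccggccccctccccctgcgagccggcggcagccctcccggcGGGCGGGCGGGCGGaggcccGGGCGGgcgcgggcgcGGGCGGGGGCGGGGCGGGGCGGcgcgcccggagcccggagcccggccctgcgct
ACVR1: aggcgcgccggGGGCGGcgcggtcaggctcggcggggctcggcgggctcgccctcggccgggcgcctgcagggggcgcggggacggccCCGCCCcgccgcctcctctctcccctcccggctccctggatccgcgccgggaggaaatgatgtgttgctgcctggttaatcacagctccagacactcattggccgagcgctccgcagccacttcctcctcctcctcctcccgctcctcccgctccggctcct
The INHBB window was 89.6% G and C, against a median of 58% over 35116 promoters, of which 8 were higher. It held 46 CpG dinucleotides and 10 GC boxes. The ACVR1 window was 75.2% G and C, with 30 CpG dinucleotides and 2 GC boxes. The table holds 2 further ACVR1 starts, whose windows were 53.6% and 48.8% G and C with 0 GC boxes each. At least 1 GC box stood in 42.6% of all promoters of the same length. The SMAD-binding motif CAGAC, also counted on both strands, occurred 0 times for INHBB and 1 time for ACVR1, and in 38% of all promoters. The heat shock element cores GAANNTTC and TTCNNGAA, found in 5.78% and 6.62% of promoters, were in neither window. These are letter matches in a window and say nothing of binding.

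Changes are given as differences of log2(intensity + 9.05), where 9.05 is the pooled lower quartile of the intensities, so changes of dim probe sets come out smaller than the ratio of their intensities. A probe set was kept for testing when its mean log2 value over the 6 arrays reached 5.19, the median of all such means. Of the 22 probe sets 15 were kept and 7 were dim, and 8 of the 10 genes had a kept one. INHBA and INHA had only dim probe sets, which are described with no test. The limit itself bore on 4 of the kept probe sets. INHBB, FST 207345_at and FSTL3 had mock means under it, at 4.45, 4.995 and 5.14, and were kept through the construct arrays. FST 226847_at, at 5.193 overall and 4.54 with hIMP1 wt, was kept through the mock and hIMP1 Dmut arrays. These 4 are described by their values. A call means an adjusted p under 0.05 in limma, adjusted by Benjamini-Hochberg across the 27307 probe sets kept.

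Median intensity ranged from 26.7 to 33.7 over the 6 arrays, and the number of arrays limits every value. Of the kidney epithelial markers PAX8, WT1, CDH1, EPCAM, KRT8 and KRT18 were kept, 6 of 10 listed, and the sum over the list lay between 2229 and 2547 on each array. PAX2, LHX1, CDH16 and KRT19 were dim, and of 6 measured genes of the mature nephron only the water channel AQP2 was kept. Summed blood markers lay between 75.9 and 124, those of fibroblasts and endothelium between 205 and 303, and those of neurons, mostly the neurofilament NEFL, between 1247 and 1662. In each of these lists the range over construct arrays overlapped that of the mock arrays, apart from hIMP1 Dmut on the mature nephron and blood lists. On the mature nephron list, mock lay at 110 and 91, hIMP1 wt at 99.5 and 81.3 and hIMP1 Dmut at 130 and 130. On the blood list, mock gave 110 and 75.9, hIMP1 wt 110 and 86.9 and hIMP1 Dmut 119 and 124. The part of these lists in the results was not tested.

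INHBB encodes the beta B subunit, the building block of activin B. Its single probe set, 205258_at, read 17.2 and 9.29 in mock, 57.5 and 29.99 with hIMP1 wt, and 63.4 and 62.0 with hIMP1 Dmut. All 4 construct arrays lay above both mock arrays. Means were 13.2 ± 5.56 (SD, n = 2) in mock, 43.7 ± 19.4 (SD, n = 2) with hIMP1 wt and 62.7 ± 0.925 (SD, n = 2) with hIMP1 Dmut. On the log2 scale the difference from mock was 1.22 ± 0.41 (SE) with hIMP1 wt, or 2.32-fold, and 1.71 ± 0.41 with hIMP1 Dmut, or 3.27-fold. These values are those that led to the choice of the gene. In the arrays numbered 1 the log2 differences were 1.34 and 1.47, and in those numbered 2 they were 1.09 and 1.95.

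Larger differences from mock were seen for 31 kept probe sets with hIMP1 wt and for 7 with hIMP1 Dmut. Dim probe sets were not ranked. INHBB was chosen for being higher with both constructs and was kept through those arrays, so its place restates that selection. The choice of offset moved the size of the difference: with an offset at the median intensity it was 0.74 and 1.09 for the 2 constructs, and with one at the 10th percentile 1.53 and 2.09.

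Both hIMP1 Dmut arrays lay above both hIMP1 wt arrays for INHBB. That difference was 0.49 ± 0.41 on the log2 scale, and it is given with no test because INHBB was chosen by its values on these arrays. Most of it came from the arrays numbered 2, where it was 0.86, against 0.12 in those numbered 1. Without hIMP1 wt replicate 2 it was 0.11, and without hIMP1 wt replicate 1 it was 0.88.

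**Figure D1:**
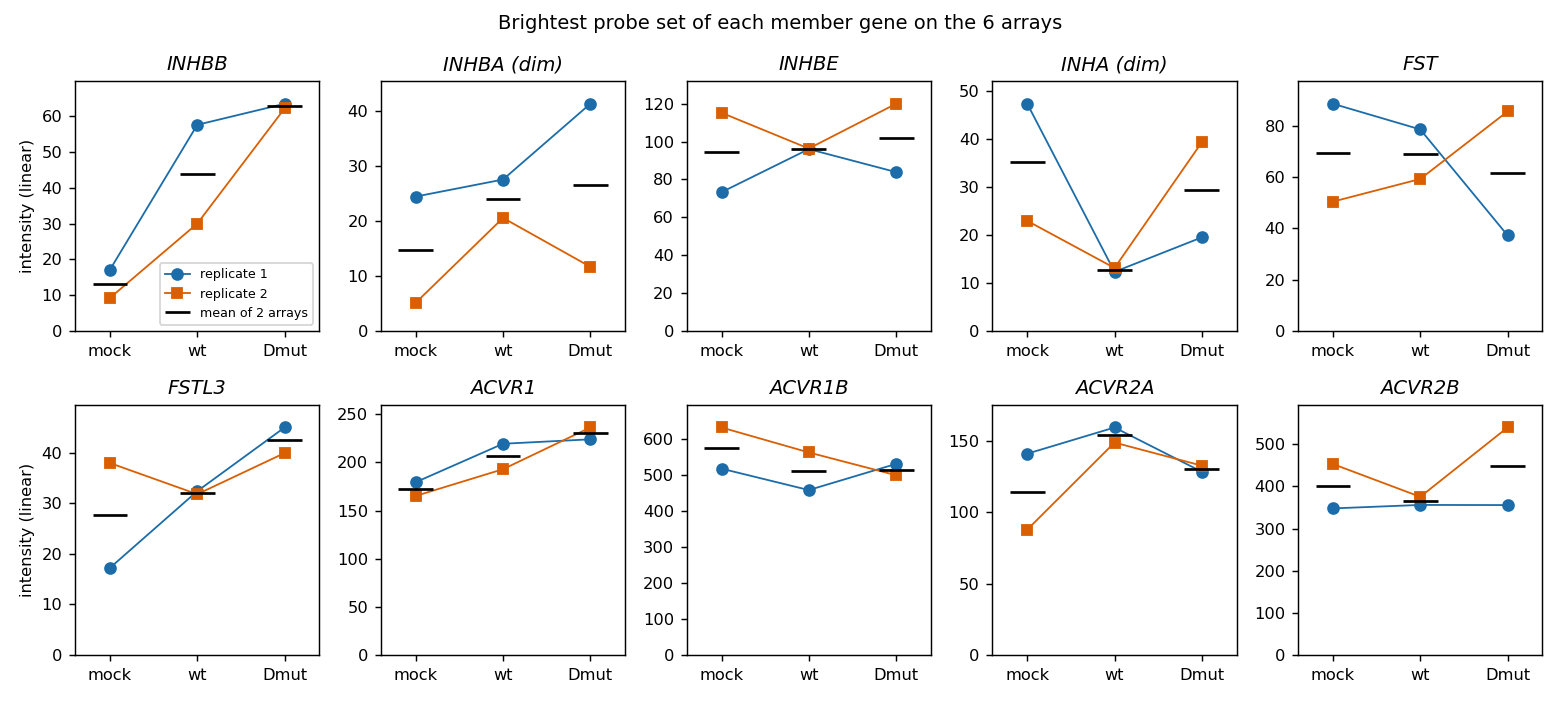
Intensity (linear scale, from 0) of the brightest probe set of each of the 10 genes in mock, hIMP1 wt and hIMP1 Dmut. Points are single arrays, joined by replicate number, and bars are means of 2 arrays. INHBB runs from a mean of 13.2 in mock to 62.7 with hIMP1 Dmut, and ACVR1 from 172 to 230, while most other genes cross or overlap between groups.

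INHBA encodes the beta A subunit of activin A. Its probe set 227140_at read 24.4 and 5.17 in mock, 27.5 and 20.6 with hIMP1 wt, and 41.3 and 11.7 with hIMP1 Dmut, so the groups overlapped. The probe set 204926_at ranged from 2.18 to 18.0 and also overlapped. The third, 210511_s_at, read 2.07 and 2.00 in mock, 1.42 and 1.09 with hIMP1 wt, and 0.957 and 1.67 with hIMP1 Dmut. There all 4 construct arrays lay below both mock arrays, at intensities far under the offset, and the log2 differences were -0.11 and -0.10. The 3 probe sets of INHBA thus had no common direction.

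INHBE, which encodes the beta E subunit known mainly from liver, read 73.3 and 115 in mock, 96.0 and 96.3 with hIMP1 wt, and 83.9 and 120 with hIMP1 Dmut. The groups overlapped, with log2 differences from mock of 0.06 ± 0.30 and 0.11 ± 0.30. INHA, the alpha subunit that turns a beta subunit into an inhibin, read 47.3 and 22.9 in mock, 12.3 and 13.1 with hIMP1 wt, and 19.5 and 39.3 with hIMP1 Dmut. Both hIMP1 wt arrays lay below both mock arrays, while hIMP1 Dmut overlapped mock. The log2 difference was -0.96 ± 0.51 with hIMP1 wt and -0.19 ± 0.51 with hIMP1 Dmut. Within the arrays numbered 1 the hIMP1 Dmut difference was -0.98, and within those numbered 2 it was 0.59. No probe set of INHA was kept, so none of these was tested.

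**Figure D2:**
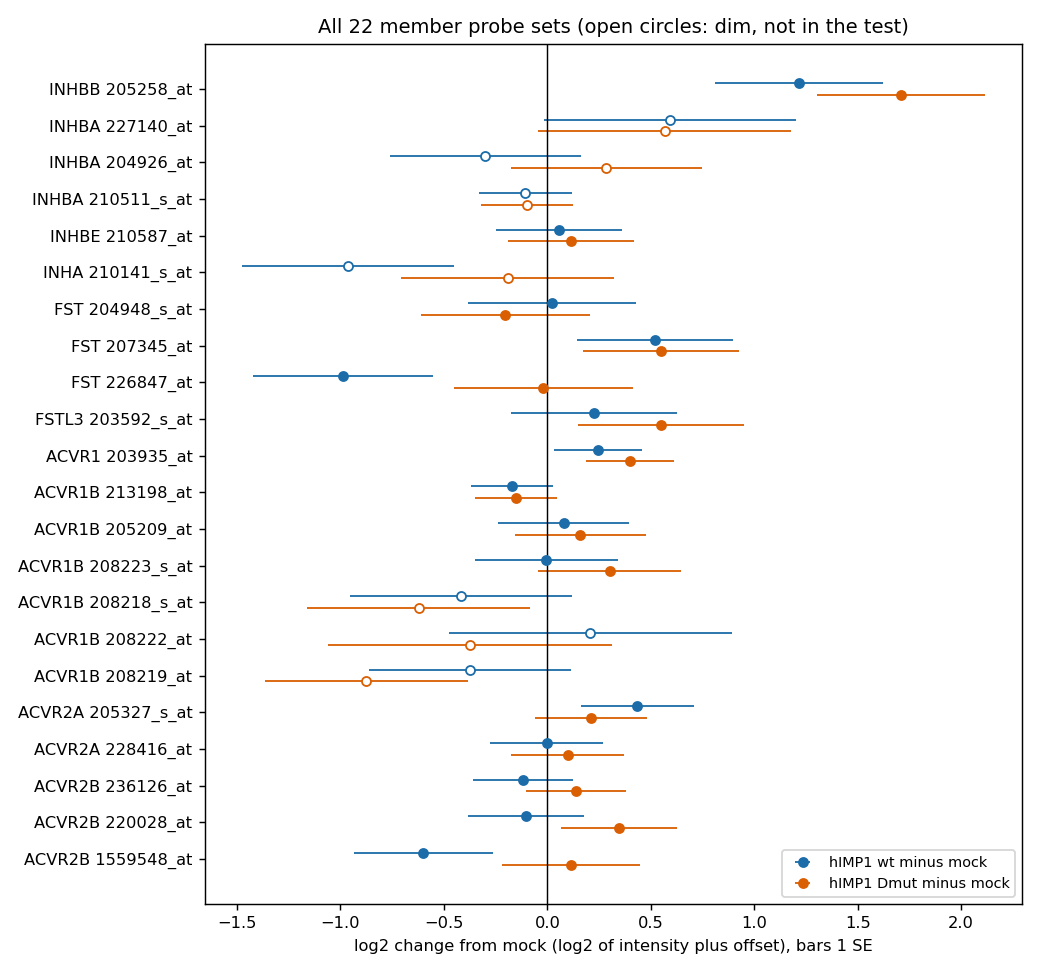
Log2 difference from mock for each of the 22 probe sets, with bars of 1 SE from the limma fit. Filled circles are kept and open circles are dim. INHBB stands at 1.22 and 1.71, and the probe sets of FST lie on both sides of 0.

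FST encodes follistatin, which binds activins almost irreversibly, and its 3 kept probe sets disagreed. The brightest, 204948_s_at, read 88.6 and 50.5 in mock, 78.6 and 59.3 with hIMP1 wt, and 37.3 and 85.6 with hIMP1 Dmut. Its groups overlapped, and the hIMP1 Dmut difference was -1.07 in the arrays numbered 1 and 0.67 in those numbered 2. The probe set 207345_at read 18.1 and 28.4 in mock, 39.2 and 34.4 with hIMP1 wt, and 34.2 and 41.3 with hIMP1 Dmut. Here all 4 construct arrays lay above both mock arrays, with log2 differences of 0.52 ± 0.38 and 0.55 ± 0.38. Within the arrays numbered 1 they were 0.83 and 0.67, and within those numbered 2 they were 0.21 and 0.43.

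The remaining FST probe set, 226847_at, read 48.2 and 28.2 in mock, 20.5 and 9.29 with hIMP1 wt, and 31.8 and 41.8 with hIMP1 Dmut. Both hIMP1 wt arrays lay below all arrays of the other groups. The log2 difference of hIMP1 wt from mock was -0.99 ± 0.43, and hIMP1 Dmut exceeded hIMP1 wt by 0.97 ± 0.43. Over the 6 arrays the log2 values of the 3 FST probe sets correlated with Pearson r between -0.41 and 0.28, a description over arrays that share scaling and groups.

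FSTL3, a secreted relative of follistatin that also binds activins, read 17.2 and 38.0 in mock, 32.4 and 31.8 with hIMP1 wt, and 45.0 and 40.0 with hIMP1 Dmut. Both hIMP1 Dmut arrays lay above both mock arrays, by 1.04 on the log2 scale in the arrays numbered 1 and by 0.06 in those numbered 2. The log2 difference was 0.55 ± 0.40 with hIMP1 Dmut and 0.23 ± 0.40 with hIMP1 wt.

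ACVR1 encodes the type I receptor ALK2, which signals mainly for bone morphogenetic proteins and can also bind activins. Its probe set 203935_at read 179 and 165 in mock, 219 and 193 with hIMP1 wt, and 224 and 236 with hIMP1 Dmut. All 4 construct arrays lay above both mock arrays, and the hIMP1 Dmut arrays above the hIMP1 wt arrays. The log2 difference from mock was 0.25 ± 0.21 with hIMP1 wt and 0.40 ± 0.21 with hIMP1 Dmut, and neither was called (limma, adjusted p = 1.00 for both). Within the arrays numbered 1 these were 0.28 and 0.31, and within those numbered 2 they were 0.21 and 0.49. Their common sign follows from the separation of the arrays and is no further evidence.

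By the rule of highest Pearson r with the log2 values of INHBB over the 6 arrays, ACVR1 ranked 4 of 23101 kept probe sets of other genes, with r = 0.986. The transcription factor TCF7L2 ranked first at 0.996, followed by MCC at 0.993 and ZSCAN2 at 0.992, and TRAPPC14 came after ACVR1 at 0.983. An r of 0.9 or more was reached by 185 of these probe sets, or 0.801%. The arrays share groups and scaling, and INHBB was chosen for its pattern over them, so these values are a description. The TCF7L2 probe set read 146 and 129 in mock, 183 and 156 with hIMP1 wt, and 188 and 183 with hIMP1 Dmut. Like INHBB, it read lower on hIMP1 wt replicate 2 than on the other construct arrays.

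ACVR1B encodes ALK4, the main type I receptor for activin A and activin B. Its brightest probe set, 213198_at, read 518 and 633 in mock, 459 and 563 with hIMP1 wt, and 531 and 500 with hIMP1 Dmut. The groups overlapped, with log2 differences of -0.17 ± 0.20 and -0.15 ± 0.20. The probe set 205209_at read 71.0 and 77.9 in mock and between 60.4 and 103 with the constructs, again with overlap. For 208223_s_at, mock read 35.9 and 33.5 and hIMP1 Dmut 49.1 and 40.8, so both hIMP1 Dmut arrays were above mock, at a log2 difference of 0.30 ± 0.35.

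The 3 dim probe sets of ACVR1B pointed elsewhere. In 208219_at mock read 25.5 and 13.1, hIMP1 wt 6.20 and 20.9, and hIMP1 Dmut 6.11 and 5.998, so both hIMP1 Dmut arrays lay below mock. The probe set 208218_s_at read 44.3 and 22.5 in mock, 12.3 and 35.2 with hIMP1 wt, and 15.8 and 19.5 with hIMP1 Dmut, with hIMP1 Dmut again below mock. These 2 followed each other over the 6 arrays with r = 0.953. The third, 208222_at, ranged from 4.37 to 44.0 with overlap. ACVR1B therefore had a probe set with hIMP1 Dmut above mock and others with hIMP1 Dmut below it, and none was called.

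ACVR2A and ACVR2B encode the type II receptors that bind activins directly. For ACVR2A, 205327_s_at read 141 and 87.8 in mock, 159 and 149 with hIMP1 wt, and 128 and 133 with hIMP1 Dmut. Both hIMP1 wt arrays lay above mock, at a log2 difference of 0.44 ± 0.27, which was 0.17 in the arrays numbered 1 and 0.70 in those numbered 2. Without mock replicate 2 it was 0.12 and without mock replicate 1 it was 0.75, and hIMP1 Dmut overlapped mock at 0.21 ± 0.27. The other ACVR2A probe set, 228416_at, lay between 105 and 159 with all groups overlapping, and its hIMP1 Dmut difference was 0.10 ± 0.27.

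The brightest ACVR2B probe set, 236126_at, read 348 and 453 in mock, 356 and 375 with hIMP1 wt, and 356 and 540 with hIMP1 Dmut. Its groups overlapped, while the arrays numbered 2 were the higher ones in every group. The probe set 220028_at read 78.4 and 111 in mock, 97.0 and 76.8 with hIMP1 wt, and 115 and 128 with hIMP1 Dmut, which put both hIMP1 Dmut arrays above mock at a log2 difference of 0.34 ± 0.28. In 1559548_at mock read 82.0 and 118, hIMP1 wt 48.4 and 78.9, and hIMP1 Dmut 131 and 87.7. Both hIMP1 wt arrays lay below mock there, at -0.60 ± 0.33, and hIMP1 Dmut exceeded hIMP1 wt by 0.71 ± 0.33. None was called.

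**Figure D3:**
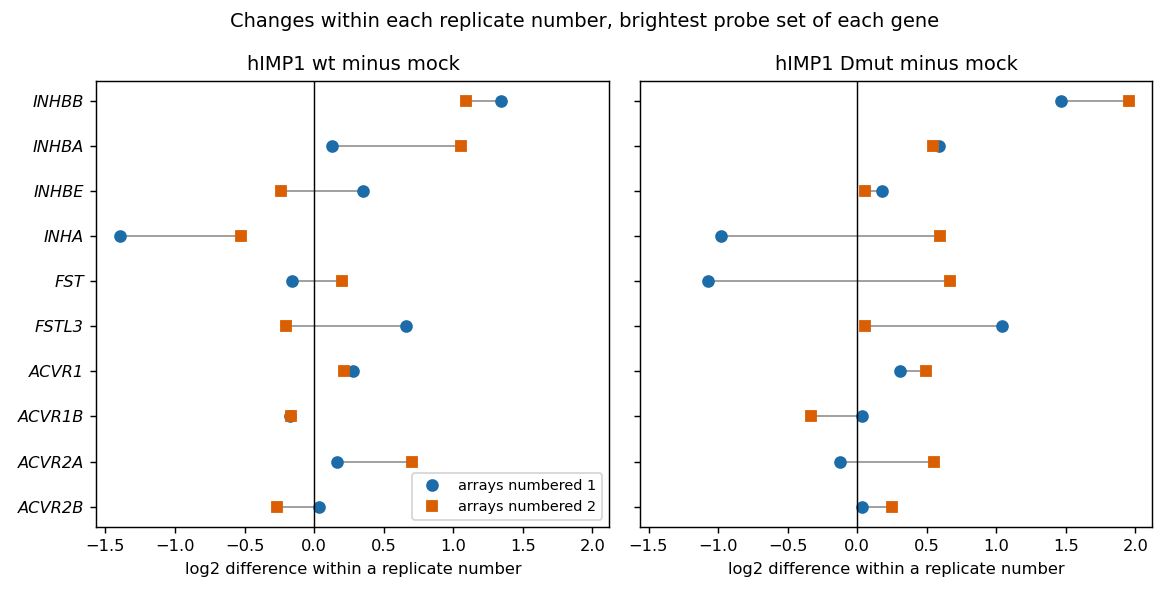
Log2 difference from mock within the arrays numbered 1 (circles) and within those numbered 2 (squares), brightest probe set of each gene. For INHBB the pairs lie at 1.34 and 1.09 with hIMP1 wt and at 1.47 and 1.95 with hIMP1 Dmut, and for FST with hIMP1 Dmut at -1.07 and 0.67.

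Of the 14 kept probe sets other than INHBB, 0 were called for hIMP1 wt or for hIMP1 Dmut against mock, where 2 of all 27307 were called in each comparison, or 0.00732%. All of those belonged to the heat shock gene HSPA6. Between the constructs 0 probe sets were called, or 0% of all tested. At an unadjusted limma p under 0.05 there were 281, 387 and 337 kept probe sets in the 3 comparisons, and the 14 held 1, 0 and 1 of them, each time FST 226847_at. With the replicate number as a block these counts were 705, 1134 and 870, of which the 14 held 1, 1 and 2, and again 0 of the 14 were called. Those under the block were FST 226847_at with hIMP1 wt, ACVR1 with hIMP1 Dmut, and FST 226847_at and ACVR2B 1559548_at between the constructs. The 14 include FST 226847_at, FST 207345_at and FSTL3, which were kept through the groups where they read high. Their p-values, with or without the block, thus carry no test. In the fit without the block, the difference between replicate numbers counts as spread. With or without the block, each count at p under 0.05 was a smaller share of the 27307 than 0.05.

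Counted over all 21 probe sets other than INHBB, dim ones included, 9 were higher with hIMP1 wt than in mock and 12 lower, or 11 and 10 under quantile or median scaling. The median log2 difference was -0.01, the same as over all probe sets without a filter. With hIMP1 Dmut 13 lay higher and 8 lower, also under both scalings, and the median was 0.11 against 0.02 over all. Between the constructs 15 lay higher with hIMP1 Dmut and 6 lower, but 12 and 9 under quantile scaling and 9 and 12 under median scaling, and the median was 0.08 against 0.03 over all. Probe sets of a gene share their target and all comparisons share arrays, so these counts are no test of the set.

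Separation between groups of 2 arrays was common, and its shares are given over all 54613 probe sets. With hIMP1 wt, both arrays lay above both mock arrays for 3 of the 21, against 11.9% of all probe sets, and below for 4, against 14.3%. With hIMP1 Dmut, 5 of the 21 lay above, against 15.2%, and 3 below, against 12.8%. The 5 were 1 probe set each of FST, FSTL3, ACVR1, ACVR1B and ACVR2B, and the 3 were INHBA 210511_s_at and the ACVR1B probe sets 208218_s_at and 208219_at. Both hIMP1 Dmut arrays lay above both hIMP1 wt arrays for 7 of the 21, against 15.8%, and below for 2, against 11%. All 4 construct arrays lay above both mock arrays for 2 of the 21, FST 207345_at and ACVR1, against 5.02%, and below for 1, INHBA 210511_s_at, against 5.03%.

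**Figure D4:**
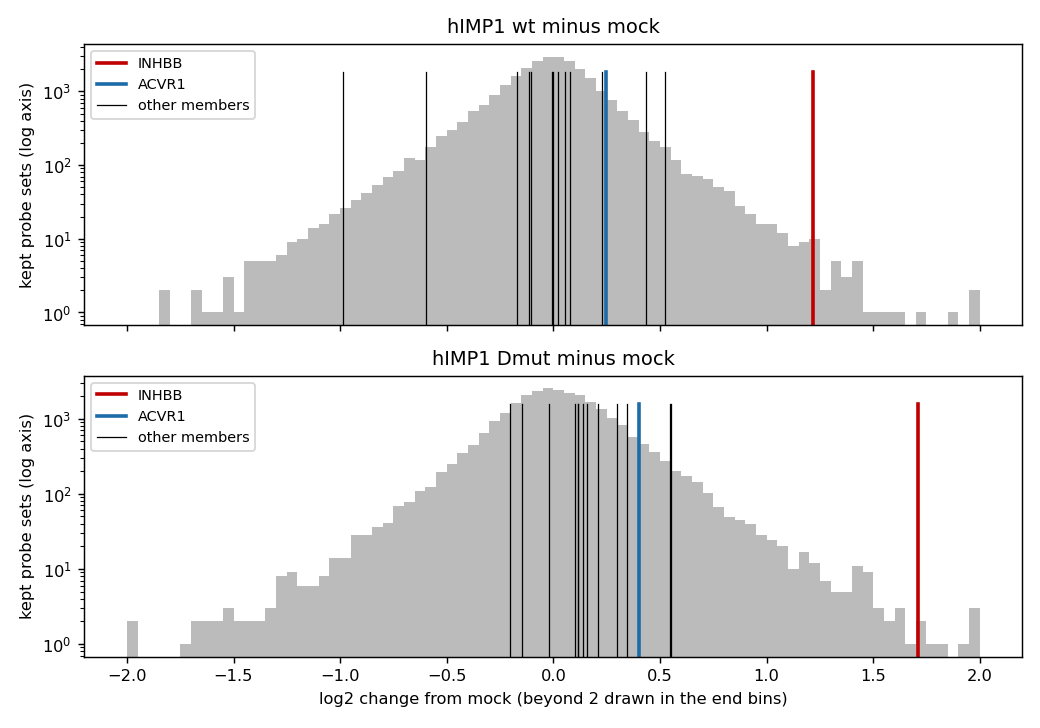
Distribution of the log2 difference from mock over the 27307 kept probe sets (grey, log count axis), with the 15 kept probe sets of the set as lines. INHBB (red) has 31 kept probe sets with a larger difference with hIMP1 wt and 7 with hIMP1 Dmut, and ACVR1 (blue) lies at 0.25 and 0.40 within the bulk. The place of INHBB restates its selection for being higher with both constructs.

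The replicate number moved many probe sets: 1558 of the kept ones were called between the arrays numbered 2 and those numbered 1, or 5.71%. Of the 14 kept probe sets other than INHBB 0 were called. The arrays numbered 2 were above those numbered 1 in all 3 groups for 3 of the 22 probe sets, against 15.6% of all probe sets, and below for 3, against 19.4%. Those above were INHBE, ACVR2A 228416_at and ACVR2B 236126_at, and those below INHBB, INHBA 227140_at and ACVR1B 208223_s_at. The ACVR2B difference was 0.35 ± 0.14 on the log2 scale (limma, unadjusted p = 0.025, adjusted p = 0.153), and that of INHBB was -0.44 ± 0.32.

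Other genes of activin and related signalling were taken from a list of 62, of which 55 had a probe set and 42 a kept one. With hIMP1 wt 17 lay higher and 25 lower than in mock, against 13009 and 14298 of all kept probe sets. The median difference was -0.10, against -0.01 over all kept ones. With hIMP1 Dmut 23 lay higher and 19 lower, against 14157 and 13150, and the median was 0.03 against 0.01. Between the constructs 29 lay higher with hIMP1 Dmut and 13 lower, against 14782 and 12525, and the median was 0.13 against 0.02. The 42 were not counted under other scalings, so these splits are a description. None of the 42 was called in any of these comparisons, where limma called 0.00732%, 0.00732% and 0% of all kept probe sets. At an unadjusted limma p under 0.05 there were 2, 0 and 1 of the 42, against 281, 387 and 337 of 27307. Both hIMP1 wt arrays lay above both mock arrays for 2 of the 42 and below for 6, against 2654 and 3168 of 27307. With hIMP1 Dmut, 7 lay above mock and 4 below, against 3444 and 2999. Both hIMP1 Dmut arrays lay above both hIMP1 wt arrays for 9 and below for 2, against 3580 and 2427.

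Among the 42 kept genes, the largest differences from mock were those of 2 listed convertases, FURIN and PCSK7. Both are named for that size, so their unadjusted p-values are a description. Dim genes of the list were not ranked. FURIN read 78.9 and 46.0 in mock, 118 and 105 with hIMP1 wt, and 134 and 83.4 with hIMP1 Dmut. All 4 construct arrays lay above both mock arrays, by 0.79 ± 0.33 and 0.73 ± 0.33 on the log2 scale (limma, unadjusted p = 0.039 and 0.053, adjusted p = 1.00 for both). Within the arrays numbered 1 the differences were 0.53 and 0.71, and within those numbered 2 they were 1.05 and 0.75. Of the 42, FURIN and PCSK7 lay above both mock arrays on all 4 construct arrays, against 5.02% of all 54613 probe sets, dim ones included. The receptor TGFBR1 and the SMAD target ID3 lay below on all 4, against 5.03% of the same probe sets.

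PCSK7, another convertase of the secretory pathway, read 21.1 and 72.5 in mock, 106 and 109 with hIMP1 wt, and 97.4 and 73.6 with hIMP1 Dmut. The differences were 1.23 ± 0.43 and 0.92 ± 0.43 (limma, unadjusted p = 0.017 and 0.058, adjusted p = 1.00 for both). They rested largely on mock replicate 1: the hIMP1 Dmut difference was 1.82 in the arrays numbered 1 and 0.02 in those numbered 2. The dim PCSK7 probe set, 232521_at, overlapped between groups. PCSK5 and PCSK6 also overlapped, at -0.16 ± 0.26 and -0.04 ± 0.29 with hIMP1 wt.

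**Figure D5:**
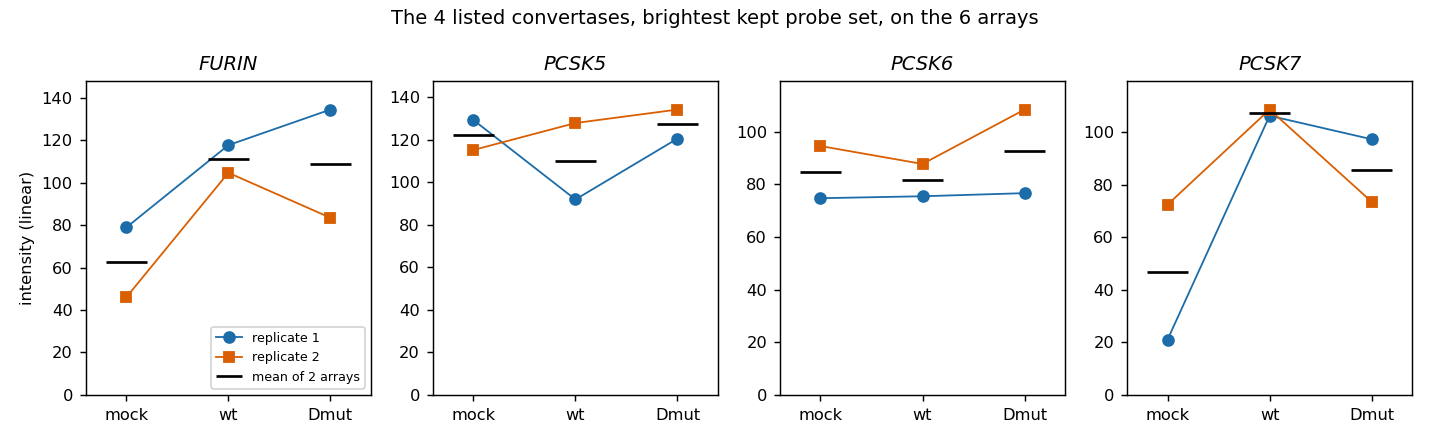
Intensity (linear scale, from 0) of the 4 listed convertases on the 6 arrays, with points for arrays joined by replicate number and bars for means of 2. FURIN reads at least 83.4 on each construct array against at most 78.9 in mock, PCSK7 has a low mock replicate 1 of 21.1, and PCSK5 and PCSK6 overlap.

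Among other ligands 6 of 10 listed were kept, and the largest differences were -0.51 ± 0.46 for GDF3 with hIMP1 wt and 0.30 ± 0.27 for BMP6 with hIMP1 Dmut. Between the constructs GDF3, a NODAL-related ligand, differed by 0.69 ± 0.46. GDF3 read 32.6 and 11.1 with hIMP1 wt. At a mean log2 of 5.26 it was kept through its mock and hIMP1 Dmut arrays, so its differences are described by their values. Of the other receptors 5 of 7 were kept, led by TGFBR2, the type II receptor of TGF-beta, at 0.19 ± 0.25 with hIMP1 wt and by BMPR1B at 0.22 ± 0.21 with hIMP1 Dmut. BMPR2 led between the constructs at 0.24 ± 0.20.

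Of the co-receptors and antagonists 3 were kept. The BMP antagonist NOG differed most, by -0.54 ± 0.40 with hIMP1 wt, -0.17 ± 0.40 with hIMP1 Dmut and 0.37 ± 0.40 between the constructs. BAMBI, a decoy receptor without kinase activity, was called between replicate numbers, at 0.48 ± 0.13 (limma, adjusted p = 0.0485).

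Among 15 kept SMADs and their regulators, the ubiquitin ligase SMURF1 was at 0.28 ± 0.28 with hIMP1 wt. The SMAD anchor ZFYVE9, also called SARA, was at 0.34 ± 0.25 with hIMP1 Dmut. It read 135 and 116 in mock, 101 and 102 with hIMP1 wt, and 143 and 182 with hIMP1 Dmut. The constructs differed there by 0.62 ± 0.25, which was not called. Of the SMAD targets 9 were kept. CCN2 was at 0.40 ± 0.43 with hIMP1 wt and at -0.43 ± 0.43 between the constructs, and CDKN2B at 0.24 ± 0.25 with hIMP1 Dmut. ID2, a target of BMP-activated SMADs, was called between replicate numbers at 0.51 ± 0.11 (limma, adjusted p = 0.023) and overlapped between the construct groups and mock.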

How the data were processed

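Total RNA of 6 samples was measured on 1-colour arrays, grouped by the labels' descriptions and numbered by their titles. As deposited by the authors, each probe set has 1 linear intensity per array. Which software, scaling method and annotation build they used is not given in the sources used here. The trimmed mean was 150 on every array, with 2% removed at each end. After 62 control probe sets were left out, log2(intensity + 9.05) was fitted with limma 3.58.1 in R 4.3.3 (lmFit, eBayes with an intensity trend, all 6 arrays, 3 residual degrees of freedom, two-sided). The fit was tested on simulated data. The replicate contrast had the group as a term. The brightest probe set stood for a gene, and each listed role was represented by the gene with the largest difference. The members and lists were chosen with earlier results of these data known.

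The replicate numbers were checked for pairing. The log2 differences between replicates 2 and 1 correlated between groups with r of 0.46 for mock and hIMP1 wt, 0.20 for mock and hIMP1 Dmut and 0.22 for hIMP1 wt and hIMP1 Dmut, so the numbers were taken to pair the arrays. This pairing comes from the data, since the labels give the numbers only. The main fit of the construct comparisons had no replicate term, so its SEs and p-values do not use the pairing. The spread they measure includes the difference between replicate numbers. Among the fits of these comparisons, only the replicate block used it. The alternatives were quantile and median scaling, other offsets and filters, a prior without trend, the replicate block, only the 4 arrays compared, the mean over a gene's probe sets and each array left out.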

Additional observations from a re-analysis of the deposited data

How the results depend on the processing

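Over 30 results, the 3 comparisons of each of 10 genes, and 12 alternatives, 32 of 360 log2 differences changed sign, and 14 results changed sign under none. Some of the 360 could not differ from the main value. These were the replicate block, an array of the group not compared left out, and the mean over probe sets for genes with 1 probe set. The count of 32 of 360 therefore understates how readily a sign changed. INHBB kept its sign under each alternative. No left-out array could change that sign, since INHBB was chosen for its values and its groups did not overlap. Its hIMP1 wt difference lay between 0.83 and 1.60 with arrays left out in turn, and its hIMP1 Dmut difference between 1.45 and 1.97. Among the member probe sets that entered each fit, INHBB aside, 0 were called under the 16 other settings. INHBA and INHA entered only the fit with no filter. With arrays left out, the brightest INHBA probe set ranged from -0.025 to 1.21 for hIMP1 wt minus mock. It ranged from -0.073 to 1.21 for hIMP1 Dmut minus mock and from -0.67 to 0.61 between the constructs. INHA ranged from -0.60 to 0.22 for hIMP1 Dmut minus mock. Both are dim. With arrays left out in turn, hIMP1 wt minus mock ranged from -0.24 to 0.35 for INHBE, -0.34 to 0.38 for FST, -0.19 to 0.65 for FSTL3 and -0.30 to 0.070 for ACVR2B. For hIMP1 Dmut minus mock the ranges were -0.18 to 0.41 for INHBE, -0.72 to 0.31 for FST, -0.10 to 0.53 for ACVR2A and -0.15 to 0.43 for ACVR2B. For hIMP1 Dmut minus hIMP1 wt they were -0.18 to 0.29 for INHBE, -0.74 to 0.29 for FST, -0.13 to 0.17 for ACVR1B and -0.038 to 0.55 for ACVR2B. Median scaling turned the last difference of INHBE to -0.063 and of ACVR1B to -0.11, and it moved the median of all kept probe sets there from 0.02 to -0.10, and between replicate numbers from -0.01 to 0.09.

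The 2 calls for hIMP1 wt became 1 with the offset at the 10th percentile, 1 above the 75th percentile, 0 without the trend, 0 with only the 4 arrays compared, and 0 to 3 with arrays left out, 0 without either hIMP1 Dmut replicate. The 2 for hIMP1 Dmut became 1 above the 75th percentile, 0 without the trend and 0 to 2 with arrays left out, 0 again without either hIMP1 Dmut replicate. With the replicate block the counts were 2, 2 and 0, and the probe sets called were the same. The 1558 calls between replicate numbers became 558 with no filter, 0 without the trend and 258 to 5393 with arrays left out, highest without hIMP1 Dmut replicate 1 (5393) or 2 (5136). Under median scaling they split into 1016 higher and 437 lower, against 767 and 791. The causes were not tested. Dim probe sets, INHBB in mock among them, lie near the offset, which limits how well their fold can be known.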
